A study of Mus musculus with 30 samples.

Results

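The 10 heat shock chaperone genes described here are Hspa1a, Hspa1b, Hspa8, Hsph1, Hsp90aa1, Hsp90ab1, Dnajb1, Hspd1, Hspe1 and Bag3, taken by symbol from a table of 54532 mouse genes. All 10 were found in the table and all 10 passed the filter on low counts, as did 12393 genes in all. They were followed in 30 RNA libraries of mouse bone marrow-derived dendritic cells (BMDCs, per the labels), in 10 groups of 3 libraries. The KO cells came from Nlrx1 deficient mice and were collected at 0, 3, 6, 9 and 12 h, and the WT cells came from wild-type mice and were collected at the same times. Nlrx1 encodes a mitochondrial protein of the NOD-like receptor family. All cells were grown with GM-CSF for 6 days and challenged with as many viable Aspergillus fumigatus conidia (AF29) as there were cells in the well, the 0 h cells being taken before the challenge. No group was kept without conidia for 3 to 12 h, so time in the well and the challenge cannot be told apart. The labels do not say how many animals gave the libraries, nor which libraries shared a culture, so p-values measure the spread between these libraries, which may be technical.

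Heat shock proteins hold unfolded proteins in solution and help them fold or be degraded. Under stress the transcription factor HSF1 binds repeated GAA units, called heat shock elements, before chaperone genes and raises their transcription. Hsp70 proteins (Hspa1a, Hspa1b and Hspa8) bind exposed stretches of a client protein, J proteins such as Dnajb1 load the client and start the ATP cycle, nucleotide exchange factors such as Hsph1 and Bag3 release it, and Hsp90 proteins (Hsp90aa1 and Hsp90ab1) finish clients such as kinases and steroid receptors. Hspd1 and Hspe1 differ from the rest: they encode Hsp60 and Hsp10, the barrel and lid of the mitochondrial chaperonin, so the set is not cytosolic throughout.

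Among the 10 are 2 pairs whose promoters share sequence, the inducible Hsp70 pair, shown in full, and the mitochondrial chaperonin pair, shown by its Hspd1 window. Hspa1a (chr17:34969190-34972156, minus strand) and Hspa1b (chr17:34956436-34959238, minus strand, GENCODE M21 on GRCm38) are neighbouring copies of the inducible Hsp70 gene. Their 250 bases before the start site, from RefSeq on GRCm38.p6 (chr17:34972157-34972406 and chr17:34959239-34959488), differed at 3 of 250 bases. Hspd1 (chr1:55077835-55088243, minus strand) and Hspe1 (chr1:55088132-55091307, plus strand) are read in opposite directions from a shared region. Each sequence is given 5′ to 3′ on the strand of its gene, and capitals mark the matches to GAANNTTC or TTCNNGAA, the 2-unit heat shock elements, which read the same on both strands.
Hspa1a: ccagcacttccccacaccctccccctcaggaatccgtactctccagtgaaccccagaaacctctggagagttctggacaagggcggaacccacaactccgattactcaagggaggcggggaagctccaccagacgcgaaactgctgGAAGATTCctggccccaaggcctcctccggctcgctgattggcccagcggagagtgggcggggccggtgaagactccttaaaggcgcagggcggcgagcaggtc
Hspa1b: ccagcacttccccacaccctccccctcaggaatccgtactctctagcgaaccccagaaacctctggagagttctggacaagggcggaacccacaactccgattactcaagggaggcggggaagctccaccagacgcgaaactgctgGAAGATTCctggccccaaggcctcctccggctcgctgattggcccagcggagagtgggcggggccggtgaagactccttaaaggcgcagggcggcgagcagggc
Hspd1: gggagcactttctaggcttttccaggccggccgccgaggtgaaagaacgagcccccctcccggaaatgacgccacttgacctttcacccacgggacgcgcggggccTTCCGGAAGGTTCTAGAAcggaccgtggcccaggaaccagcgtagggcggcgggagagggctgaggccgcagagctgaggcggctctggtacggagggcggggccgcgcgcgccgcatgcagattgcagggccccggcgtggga
The Hspa1a and Hspa1b windows each held a single match, beginning at position -104 from the start site. The Hspd1 window (chr1:55087933-55088182) lies inside the annotated gene, before the more downstream of 2 RefSeq start sites, and shares 215 bases (chr1:55087933-55088147) with the Hspe1 window on the other strand. Both held the same 3 overlapping 2-unit matches, from -144 for Hspd1 and from -89 for Hspe1. They also make up 3-unit forms, in which GAA and TTC units alternate at the same spacing. The window before the other Hspd1 start site (chr1:55088244-55088493) held no match.

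Windows were given for 7 of the 10 genes, and 5 of those 7 held a 2-unit match in at least 1 window: Hspa1a, Hspa1b, Hspd1, Hspe1 and Hsph1. The Hsph1 match, TTCTCGAA, began at -54 or -33, depending on the start site. Of 32851 mouse windows of the same length, 12.8% held either 2-unit form, 0.466% held a 3-unit form and 12.4% held TATAAA or its reverse complement, which none of the windows of the 7 genes held. These shares are per window, while the members were counted per gene over 10 windows. The matches of Hspa1a and Hspa1b have the same sequence, and Hspd1 and Hspe1 share theirs. A match is a description of letters and was not tested for binding. Dnajb1 and Bag3 had no match in these windows, and Hspa8, Hsp90aa1 and Hsp90ab1 were not matched to a window.

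Library totals ran from 1722384 to 3509429 counts with a median of 2492886. Nlrx1 had 0 to 14 counts in the 15 KO libraries (2.49 ± 1.75 CPM, SD, where CPM is the count scaled by library total). The 15 WT libraries had 13 to 46 counts (9.32 ± 2.93 CPM, SD). Nlrx1 was thus lower in the KO libraries as a group, with count ranges that overlap at 13 to 14. Of 8 dendritic cell markers, Itgax, Cd74 and Csf2rb averaged 1283, 1236 and 1773 CPM over the 30 libraries, and Flt3 averaged 0.603 CPM. The 8 macrophage markers were all detected, led by Apoe (1006 CPM on average) and Csf1r (635 CPM) with C1qa lowest (23.4 CPM), and had a summed level of 1452 to 2201 CPM in KO libraries and 1924 to 2974 CPM in WT libraries. The 7 neutrophil markers summed to 178 to 524 CPM in KO libraries and 358 to 956 CPM in WT libraries. Markers of B cells, of T and NK cells and of mast cells and basophils summed to at most 7.58 CPM in any library, with Fcer1a at 0 counts. In bulk RNA, fewer cells of a type and less RNA per cell cannot be told apart.

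The 10 genes covered a wide range of expression. Per kilobase of exon (RPKM, mean over the 30 libraries), Hsp90ab1 was highest at 540, followed by Hspa8 at 149.6, Hsp90aa1 at 92.5, Hspd1 at 70.2, Hspe1 at 42.0, Bag3 at 23.7, Hsph1 at 17.6, Hspa1b at 14.1, Hspa1a at 13.8 and Dnajb1 at 7.53. The lowest Hsp90ab1 library (444 RPKM) lay above the highest Hspa8 library (209 RPKM), and the lowest Hspe1 library (30.7 RPKM) lay above the highest Bag3 library (28.5 RPKM). The ranges of all other neighbours in this order overlapped. Hspa1a and Hspa1b spanned 2.52 to 44.1 RPKM and 2.96 to 45.7 RPKM over the 30 libraries, the largest ratios of highest to lowest library among the 10.

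Hspa1a and Hspa1b, the stress-inducible Hsp70 genes, were the only members called as rising at every later time in both genotypes, and they rose most at 12 h. Of these calls, that of Hspa1b at 3 h in KO cells (log2 change 0.83, edgeR adjusted p = 0.0109) was lost without the KO 0 h replicate 1, 2 or 3 or the KO 3 h replicate 3 (edgeR adjusted p from 0.0541 to 0.0616). Their own counts could not be separated with confidence: 58.8% of the 50-base windows of the Hspa1a transcript also occur in Hspa1b, and the ratio of their counts lay between 0.815 and 1.25 in all 30 libraries, with a median of 1.03. In 30 of 30 libraries the 2 counts differed by less than 2 counting standard deviations. The summed level is therefore used beside the separate rows. A gene annotated over Hspa1a on the other strand, Gm20481, had 28 counts over all libraries.

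**Figure D1:**
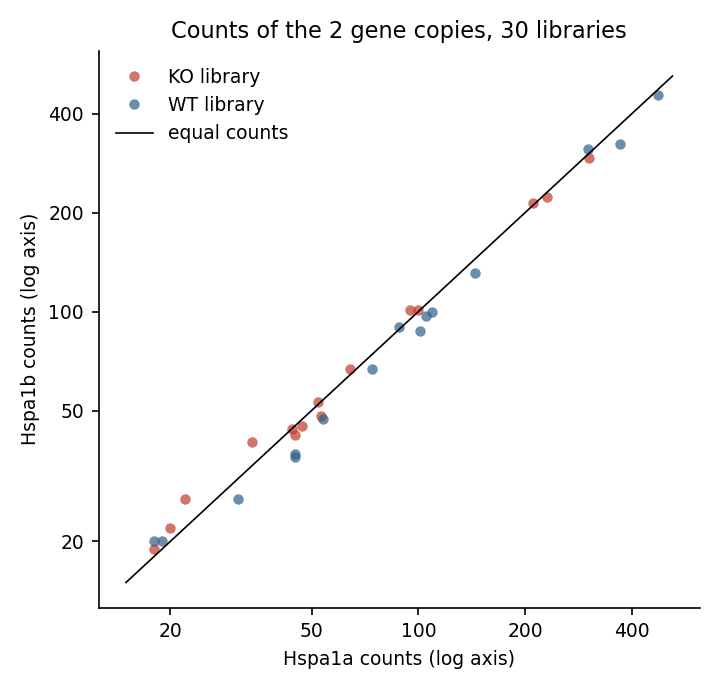
Counts of Hspa1a (x axis) and Hspa1b (y axis) in each of the 30 libraries, both on log axes, with KO libraries in red, WT libraries in blue and the line of equal counts. All points lie near the line, with ratios of 0.815 to 1.25.

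In the KO libraries, the summed Hspa1a and Hspa1b level was 18.5, 18.4 and 18.5 CPM at 0 h, 35.5, 35.6 and 37.7 CPM at 3 h, 42.7, 41.7 and 43.9 CPM at 6 h, 68.8, 70.9 and 54.1 CPM at 9 h, and 197, 189 and 207 CPM at 12 h. In the WT libraries it was 20.5, 16.4 and 15.8 CPM at 0 h, 40.8, 44.3 and 40.0 CPM at 3 h, 59.8, 82.3 and 75.2 CPM at 6 h, 67.7, 67.8 and 82.7 CPM at 9 h, and 257, 214 and 251 CPM at 12 h. Within each genotype every library at 3 h or later lay above every 0 h library, and every 12 h library lay above all earlier ones. At 12 h against 0 h the pair was 10.7-fold higher in KO cells (log2 change 3.42 ± 0.12, SE) and 13.6-fold higher in WT cells (log2 change 3.77 ± 0.12). The edgeR adjusted p-values of these changes were 2.21e-17 in KO cells and 3.27e-18 in WT cells. The difference between the genotypes in this change was -0.35 ± 0.18, edgeR adjusted p = 0.464 (95% interval -0.72 to 0.02).

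**Figure D2:**
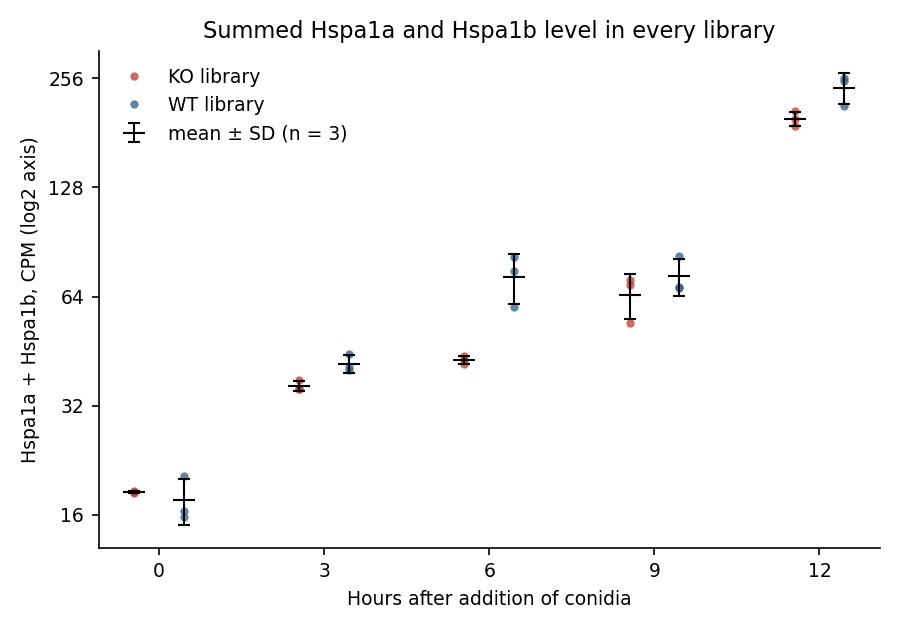
Summed Hspa1a and Hspa1b level (y axis, CPM, log2 axis) against hours after the addition of conidia (x axis), with a point per library and bars for the mean ± SD of 3 libraries, KO in red left of WT in blue. The groups stand apart at 6 h, where KO libraries lay at 41.7 to 43.9 CPM and WT libraries at 59.8 to 82.3 CPM, and both reach their highest level at 12 h.

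Between neighbouring times, the calls within each genotype were as follows, while no test of a difference between the genotypes in the course of the pair passed (edgeR adjusted p = 0.101 in the F test over the 4 later times). In KO cells the pair was not called between 6 h and 3 h (log2 change 0.24 ± 0.12, edgeR adjusted p = 0.448), then rose between 9 h and 6 h (0.60 ± 0.12, edgeR adjusted p = 0.00556) and between 12 h and 9 h (1.61 ± 0.10, edgeR adjusted p = 2.89e-11). In WT cells it rose between 6 h and 3 h (0.80 ± 0.12, edgeR adjusted p = 0.000344), was level between 9 h and 6 h (0.01 ± 0.11, edgeR adjusted p = 0.994), and rose between 12 h and 9 h (1.73 ± 0.10, edgeR adjusted p = 2.96e-12). The KO rise at 9 h over 6 h was not called without the 9 h KO replicate 2 (edgeR adjusted p = 0.0508). With libraries of those 2 groups alone, its edgeR adjusted p was 0.102.

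At 6 h the pair was lower in KO cells, at 42.8 ± 1.11 CPM against 72.4 ± 11.5 CPM in WT cells (SD, n = 3 each), and the 2 groups did not overlap. The log2 difference was -0.76 ± 0.12 (edgeR adjusted p = 0.00011), with values of -0.85 for Hspa1a and -0.66 for Hspa1b when fitted separately. It kept its call with each library left out in turn, with log2 differences from -0.89 to -0.67. At the other times the difference was not called: 0.07 ± 0.15 at 0 h, -0.20 ± 0.12 at 3 h, -0.17 ± 0.11 at 9 h and -0.28 ± 0.10 at 12 h, with edgeR adjusted p from 0.175 to 0.916. The genotypes' changes from 0 h to 6 h differed by -0.83 ± 0.19, which did not pass over all genes (edgeR adjusted p = 0.383). At 6 h the macrophage markers summed to 1671 to 1701 CPM in KO libraries and 2273 to 2469 CPM in WT libraries, with 6 of 8 lower in KO cells, and the neutrophil markers to 515 to 524 CPM in KO libraries and 618 to 956 CPM in WT libraries, with 3 of 5 tested lower. Their part in the difference was not tested. One 6 h KO library, replicate 1, stood apart from its group on the third principal component of all genes, and without it the 6 h differences were -0.82 for Hspa1a (edgeR adjusted p = 0.00143) and -0.70 for Hspa1b (edgeR adjusted p = 0.00754).

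Hspa8, the constitutive Hsp70, sets the background for this rise. Its levels at 12 h were 649, 599.5 and 532 CPM in KO cells, against 604, 601 and 674 CPM in KO cells at 0 h. In WT cells they were 679, 673 and 553 CPM at 12 h, against 704, 899 and 684 CPM at 0 h. The KO times overlap, and in WT cells the highest 0 h library (899 CPM) stands apart from the others. The KO change was not called (log2 change -0.08 ± 0.09, edgeR adjusted p = 0.666). The WT fall of 0.26 on the log2 scale passed narrowly (log2 change -0.26 ± 0.09, edgeR adjusted p = 0.0438). It was lost without the WT 0 h replicate 2 (adjusted p = 0.392), the WT 12 h replicate 2 (0.0516) or replicate 3 (0.249), and without any of 10 libraries of other groups (0.0508 to 0.0564). The call was also lost in DESeq2 (adjusted p = 0.0541) and in edgeR with the libraries of those 2 groups alone (adjusted p = 0.253). Per kilobase, the share of Hspa1a and Hspa1b in the summed level of the 3 Hsp70 genes was 33.3 ± 3.01% at 12 h and 4.23 ± 0.248% at 0 h in KO cells, and 36.2 ± 4.13% at 12 h and 3.38 ± 0.754% at 0 h in WT cells (SD, n = 3 each). Hspa8 hosts Snord14c, Snord14d and Snord14e on its own strand, which had 5878, 10909 and 685 counts over all libraries, with the division of reads among them not given in the sources used here.

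Over the 10 members, calls at a Benjamini-Hochberg adjusted p under 0.05 are given beside the share of all tested genes called. In KO cells at 3 h against 0 h, 3 of 10 were called (1.22% of all genes): 2 rose (1.03% of all genes rose) and 1 fell (0.186% fell). At 6 h 4 were called (5.91%), with 2 rises (3.21%) and 2 falls (2.7%). At 9 h 5 were called (10.9%), with 2 rises (5.86%) and 3 falls (5%), and at 12 h 7 were called (14.7%), with 3 rises (8.13%) and 4 falls (6.58%). In WT cells at 3 h against 0 h, 2 of 10 were called (1.02% of all genes), with 2 rises (0.88%) and 0 falls (0.137%). At 6 h 5 were called (5.96%), with 2 rises (3.29%) and 3 falls (2.67%). At 9 h 6 were called (10.4%), with 2 rises (5.57%) and 4 falls (4.81%), and at 12 h 7 were called (18.1%), with 2 rises (9.64%) and 5 falls (8.47%). Without the WT 12 h replicate 3, 4 were called in that last comparison, with the share of all genes in that fit not given. The median log2 change over all tested genes stayed between -0.00508 and 0.0148 in these 8 comparisons, which share their 0 h libraries within a genotype.

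Between neighbouring times, 0 of 10 members were called at 6 h against 3 h in KO cells by edgeR or DESeq2. In edgeR 1.46% of all genes were called in that comparison. Of the 10, 2 had an unadjusted edgeR p under 0.05, a level at which the share of all genes is not given. Without the KO 3 h replicate 1 or the WT 3 h replicate 3, 1 was called there, a fall of Hspd1. In KO cells 2 were called at 9 h against 6 h (1.26%) and 2 at 12 h against 9 h (4.49%), which in both cases were Hspa1a and Hspa1b. The KO 9 h against 6 h calls were lost without the 6 h replicates 1 or 2 or the 9 h replicates 1 or 2 for both genes, and for Hspa1b also without the 6 h replicate 3 (edgeR adjusted p from 0.0507 to 0.144), and in DESeq2 (adjusted p = 0.0525 and 0.0826). In WT cells 3 were called at 6 h against 3 h (1.89%), namely Hspa1a and Hspa1b with rises and Hsp90ab1 with a fall of 0.21 (log2 change -0.21, edgeR adjusted p = 0.0329), which was lost without any of those 6 libraries. None was called at 9 h against 6 h in WT cells by edgeR or DESeq2 (1.36% in edgeR). An unadjusted edgeR p under 0.05 was found for 2, again without a share of all genes. At 12 h against 9 h 4 were called in WT cells (10.5%): Hspa1a, Hspa1b and Hspd1 rose, and Hsp90ab1 fell (log2 change -0.22, edgeR adjusted p = 0.00656), a call lost without the WT 12 h replicate 3 (edgeR adjusted p = 0.0532).

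**Figure D3:**
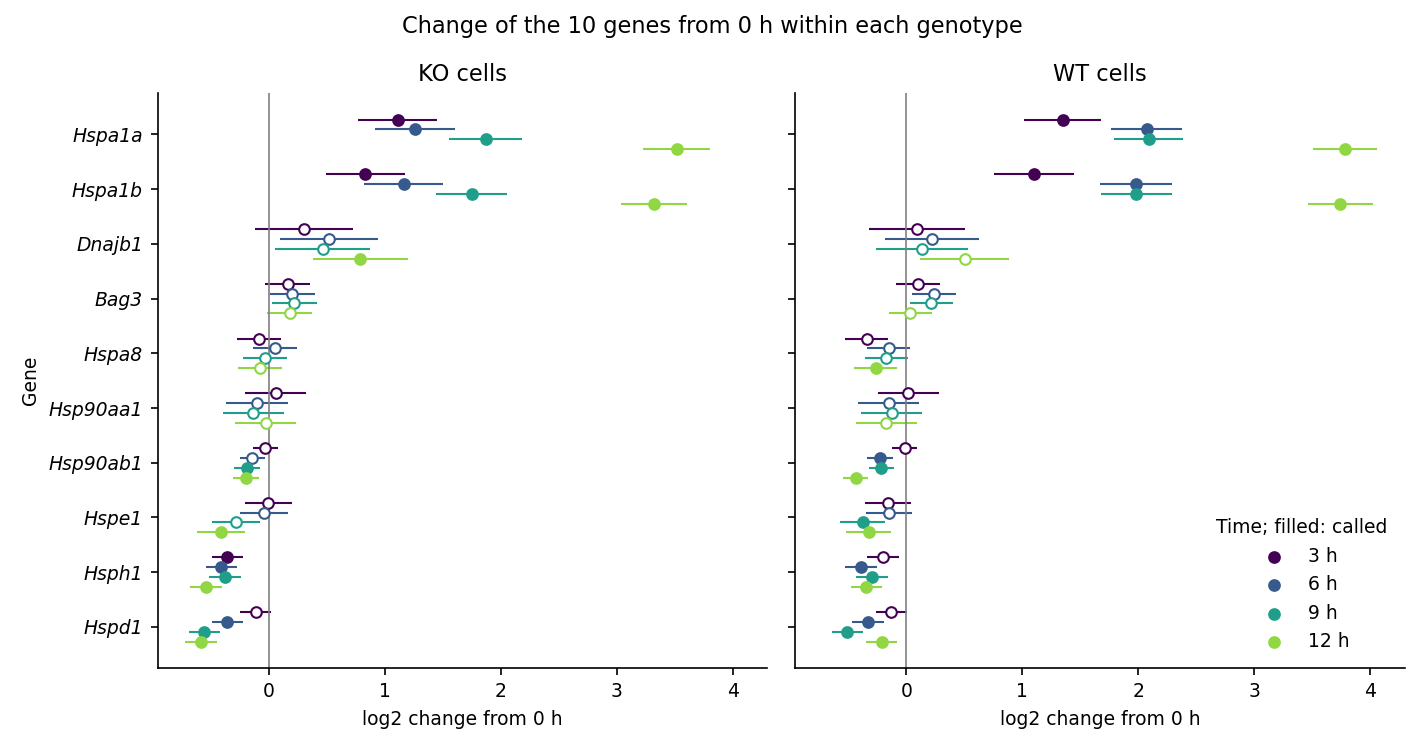
Log2 change from 0 h (x axis) of each of the 10 genes (y axis) in KO cells (left) and WT cells (right) at 3, 6, 9 and 12 h, with 95% intervals of the fit as bars and filled points for changes called at an adjusted p under 0.05. Hspa1a and Hspa1b lie far to the right of the others, and Hspd1, Hsph1, Hspe1 and Hsp90ab1 lie left of 0 at 12 h in both genotypes.

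Among the partners of Hsp70, Dnajb1, the J protein that works with inducible Hsp70, was 32.7, 30.9 and 28.4 CPM in KO cells at 12 h, against 22.5, 15.7 and 15.5 CPM in KO cells at 0 h. In WT cells it was 34.3, 28.8 and 26.2 CPM at 12 h, against 20.8, 20.1 and 22.4 CPM at 0 h. The 12 h and 0 h libraries did not overlap in either genotype. The change was called in KO cells (log2 change 0.79 ± 0.20, edgeR adjusted p = 0.0062) and was not in WT cells (0.50 ± 0.19, edgeR adjusted p = 0.0637). The difference between these changes was 0.29 ± 0.27 (edgeR adjusted p = 0.778), so the genotypes were not shown to differ. Dnajb1 had at most 124 counts in a library, the fewest of the 8 genes other than the Hspa1 pair.

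Bag3, the exchange factor that links Hsp70 to autophagy of damaged proteins, was 57.1, 61.9 and 55.8 CPM at 12 h in KO cells, against 59.1, 50.6 and 45.5 CPM at 0 h. WT levels were 65.6, 56.3 and 59.0 CPM at 12 h, against 57.2, 55.4 and 64.3 CPM at 0 h. The ranges overlapped in both genotypes, and no change from 0 h was called at any time, with log2 changes of 0.16 to 0.22 in KO cells and 0.04 to 0.24 in WT cells. Hsph1, the Hsp110 exchange factor, fell. It was 112, 112 and 116 CPM at 12 h in KO cells, against 167, 171 and 156 CPM at 0 h, and 115, 119.8 and 111 CPM at 12 h in WT cells, against 143, 150.2 and 146 CPM at 0 h. The ranges did not overlap in either genotype, and the log2 changes were -0.54 ± 0.07 in KO cells (edgeR adjusted p = 9.85e-07) and -0.34 ± 0.07 in WT cells (edgeR adjusted p = 0.000414). The fall was called from 3 h in KO cells (-0.36 ± 0.07, edgeR adjusted p = 0.00252) and from 6 h in WT cells (-0.39 ± 0.07, edgeR adjusted p = 0.000316). The 3 h change in WT cells was -0.20 ± 0.07 (edgeR adjusted p = 0.208), and the genotypes' 3 h changes were not shown to differ (-0.15 ± 0.09, edgeR adjusted p = 0.984).

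Of the 2 cytosolic Hsp90 genes, Hsp90ab1 was called as falling at 12 h in both genotypes and Hsp90aa1 was not called, and the changes of the 2 genes were not tested against each other. Hsp90ab1, the constitutive Hsp90 and the most abundant of the 10, was 1429, 1419 and 1511 CPM at 12 h in KO cells, against 1691, 1768 and 1534 CPM at 0 h. In WT cells it was 1468, 1426 and 1333 CPM at 12 h, against 1764, 1997 and 1958 CPM at 0 h. All 12 h libraries lay below the 0 h libraries of their genotype. The log2 change was -0.20 ± 0.05 in KO cells (edgeR adjusted p = 0.0118), which was lost without the KO 0 h replicate 2 (edgeR adjusted p = 0.0842), and -0.44 ± 0.05 in WT cells (edgeR adjusted p = 7.97e-07). The difference between these changes, 0.24 ± 0.08, did not pass over all genes (edgeR adjusted p = 0.151).

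Hsp90aa1, the stress-responsive Hsp90, was 361, 319.9 and 354 CPM at 12 h in KO cells, against 346, 358 and 349 CPM at 0 h. WT levels were 363, 339 and 388 CPM at 12 h, against 423, 429.6 and 373 CPM at 0 h. The ranges overlapped in both genotypes. No change from 0 h was called, with log2 changes of -0.13 to 0.06 in KO cells and -0.17 to 0.02 in WT cells. The 95% intervals at 12 h, -0.29 to 0.24 in KO cells and -0.43 to 0.09 in WT cells, leave out a rise like that of the Hspa1 pair. The summed level of the 10 genes was 3000 ± 60.0 CPM at 12 h and 3198 ± 105 CPM at 0 h in KO cells, and 3091 ± 134 CPM at 12 h and 3603 ± 227 CPM at 0 h in WT cells (SD, n = 3 each).

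**Figure D4:**
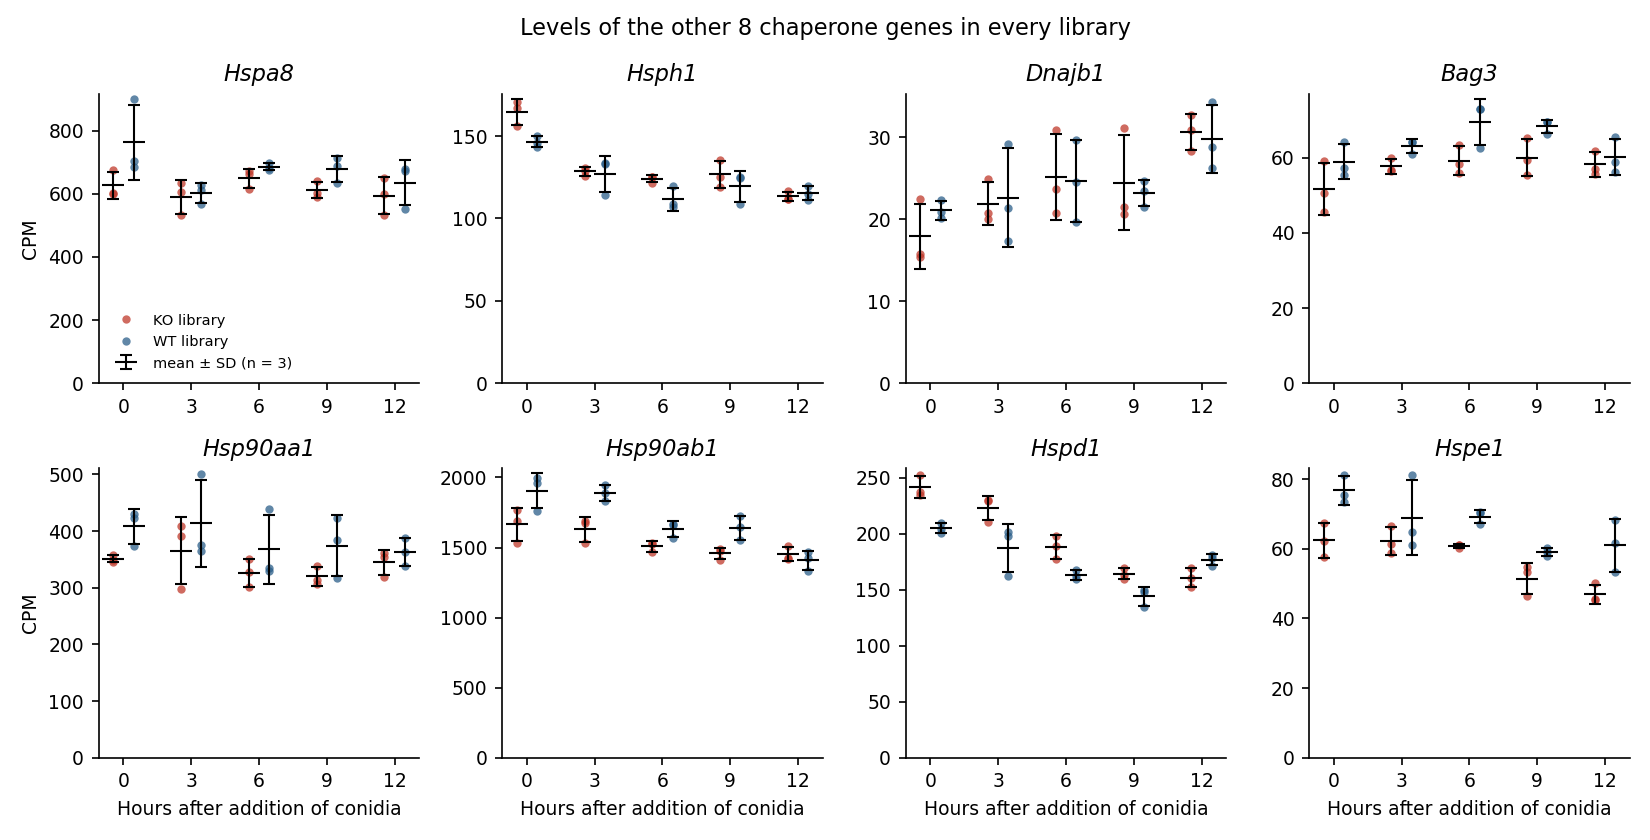
Levels (y axes, CPM) of the 8 genes other than Hspa1a and Hspa1b against hours after the addition of conidia (x axes), with a point per library and bars for the mean ± SD of 3 libraries, KO in red left of WT in blue. Hsph1 and Hsp90ab1 decline with time in both genotypes, and Hspd1 lies higher and Hspe1 lower in KO than in WT cells at 0 h.

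The mitochondrial chaperonin genes were lower at 12 h than at 0 h in both genotypes. In KO cells Hspd1 averaged 241 ± 9.77 CPM at 0 h, 223 ± 10.9 at 3 h, 188 ± 10.3 at 6 h, 164 ± 5.06 at 9 h and 161 ± 8.48 at 12 h. In WT cells it averaged 205 ± 4.49 CPM at 0 h, 187 ± 21.6 at 3 h, 163 ± 4.23 at 6 h, 144 ± 8.40 at 9 h and 177 ± 5.15 at 12 h (SD, n = 3 each). The 12 h libraries were at 169.5, 160.4 and 153 CPM in KO cells and at 171, 181 and 178 CPM in WT cells, and all KO libraries lay below all WT libraries, whereas at 0 h all KO libraries (235, 253 and 237 CPM) lay above all WT libraries (204, 209 and 200.4 CPM).

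At 12 h against 0 h the log2 change of Hspd1 was -0.59 ± 0.07 in KO cells (edgeR adjusted p = 1.78e-07) and -0.21 ± 0.06 in WT cells (edgeR adjusted p = 0.0225). The WT call was lost without the WT 0 h replicate 1 (edgeR adjusted p = 0.0629) or 2 (0.0877), or the WT 12 h replicate 1 (0.0723) or 3 (0.0525), and in DESeq2 (adjusted p = 0.0803). Between 12 h and 9 h Hspd1 rose in WT cells (0.30 ± 0.07, edgeR adjusted p = 0.00312) and was not called in KO cells (-0.03 ± 0.07, edgeR adjusted p = 0.911). The difference between the genotypes' changes from 0 h to 12 h was -0.37 ± 0.09, just outside the threshold (edgeR adjusted p = 0.0514), while the adjusted p in DESeq2 was 0.0373. It passed in edgeR without the WT 3 h replicate 1 (adjusted p = 0.0474) or 3 (0.023), the WT 9 h replicate 3 (0.048) or the KO 6 h replicate 3 (0.0491). Among all tested genes 0.726% were called in that contrast in edgeR.

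Hspe1, which encodes the chaperonin's lid, was 50.1, 45.3 and 45.5 CPM at 12 h in KO cells, against 57.6, 67.5 and 62.3 CPM at 0 h. In WT cells it was 68.4, 61.6 and 53.2 CPM at 12 h, against 73.4, 75.5 and 81.3 CPM at 0 h. The 12 h and 0 h libraries did not overlap in either genotype. The log2 change was -0.42 ± 0.10 in KO cells (edgeR adjusted p = 0.00499) and -0.32 ± 0.09 in WT cells (edgeR adjusted p = 0.0175). The WT call was lost without the WT 0 h replicate 3 (edgeR adjusted p = 0.0857) or the WT 12 h replicate 2 (0.0517) or 3 (0.12), and in DESeq2 (adjusted p = 0.0895).

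The Hspd1 window printed above overlaps the Hspe1 window. From 0 to 9 h the log2 difference of KO from WT cells was 0.19 to 0.25 for Hspd1 and -0.29 to -0.14 for Hspe1, and at 12 h it was -0.14 for Hspd1 and -0.39 for Hspe1. Of these, Hspd1 at 0 and 3 h and Hspe1 at 12 h were called. The ratio of Hspe1 to Hspd1 per kilobase was lower in all KO groups than in the WT group of the same time: 0.463 ± 0.0209 against 0.673 ± 0.0474 at 0 h, 0.501 ± 0.0209 against 0.662 ± 0.0953 at 3 h, 0.580 ± 0.0342 against 0.761 ± 0.0166 at 6 h, 0.561 ± 0.0533 against 0.737 ± 0.0323 at 9 h, and 0.523 ± 0.0152 against 0.621 ± 0.0908 at 12 h (KO against WT, SD, n = 3 each). At each time the highest KO library lay below the lowest WT library, at 12 h by a narrow margin (0.534 in KO cells and 0.536 in WT cells). This ratio was formed after the values had been seen and was not tested. The genes overlap by annotation on opposite strands. Reads from the shared stretch cannot be assigned with certainty, the strand setting of the counting being one of the items not given in the sources used here.

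Averaged over the 5 times, 8 of the 10 members differed between KO and WT cells, beside 24.9% of all tested genes. Hspd1 was higher in KO cells (log2 difference 0.15 ± 0.03, edgeR adjusted p = 0.00037). Lower in KO cells were Hspa1a (-0.34 ± 0.06), Hspe1 (-0.24 ± 0.04), Hspa1b (-0.19 ± 0.06), Hsp90aa1 (-0.17 ± 0.06), Bag3 (-0.16 ± 0.04), Hsp90ab1 (-0.13 ± 0.02) and Hspa8 (-0.13 ± 0.04), with edgeR adjusted p from 0.000162 to 0.0401. The summed Hspa1 pair differed by -0.27 ± 0.05 (edgeR adjusted p = 0.000531). Hsph1 (0.08 ± 0.03, edgeR adjusted p = 0.0532) and Dnajb1 (-0.03 ± 0.09, edgeR adjusted p = 0.862) were not called. The Hspa1b call was lost in DESeq2 (adjusted p = 0.149) and with any of 12 libraries left out (edgeR adjusted p from 0.05 to 0.0872): the WT 0 h replicate 1, 3 h replicates 1 and 2, 6 h replicates 2 and 3, 9 h replicate 3 and 12 h replicates 1 and 3, and the KO 0 h replicates 1 and 3, 3 h replicate 1 and 9 h replicate 3. Over these times 7 of 8 macrophage markers were called lower in KO cells and 1 was called higher. Of the neutrophil markers 5 of 5 tested were lower, and of the dendritic cell markers 5 of 7 tested were higher. The part of these markers' cell types in the member differences was not tested. Genes of small RNAs took 7.97 to 9.01% of the counts in the KO libraries of all times, and in WT libraries 12.6 to 13.8% at 0 h, 13.9 to 14.1% at 6 h and 8.29 to 8.72% at 12 h, with 9.88% the lowest share before 12 h. With the scaling computed without those genes, 0 of the 65 member calls over all comparisons were lost.

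At single times fewer members differed. At 0 h, 2 of 10 were called (5.02% of all genes): Hspd1 was higher in KO cells (0.24 ± 0.06, edgeR adjusted p = 0.0286) and Hsp90ab1 lower (-0.20 ± 0.05, edgeR adjusted p = 0.0285). At 3 h the same genes were called in the same directions, 2 of 10 (6.92% of all genes), with 0.25 ± 0.07 for Hspd1 (edgeR adjusted p = 0.0174) and -0.21 ± 0.05 for Hsp90ab1 (edgeR adjusted p = 0.0136). At 6 h the 2 called were Hspa1a and Hspa1b (5.78%). At 9 h none of the 10 was called by edgeR or DESeq2 (5.06% in edgeR). An unadjusted edgeR p under 0.05 was found for 5, and the share of all genes at that level is not given. At 12 h 1 was called (1.9%): Hspe1 was lower in KO cells (-0.39 ± 0.10, edgeR adjusted p = 0.0366).

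The calls at 0, 3 and 12 h were lost when single libraries were left out, while those of Hspa1a and Hspa1b at 6 h were not. With only the libraries of the comparison, the 6 h call of Hspa1b was lost (log2 difference -0.65, edgeR adjusted p = 0.0613). At 0 h, Hspd1 was lost without WT replicate 1 (edgeR adjusted p = 0.0731), 2 (0.0581) or 3 (0.104), KO replicate 2 (0.131) or 3 (0.0571), or either of 2 WT 6 h libraries, replicates 1 and 2 (0.0507 each), and Hsp90ab1 without WT replicate 2 (0.152) or 3 (0.106) or KO replicate 1 (0.0614) or 3 (0.194). At 3 h, Hspd1 was lost without WT replicate 3 (edgeR adjusted p = 0.178) or KO replicate 2 (0.102) or 3 (0.0781), and Hsp90ab1 without WT replicate 3 (0.0651) or KO replicate 1 (0.0945). At 12 h, Hspe1 was lost without WT replicate 1 (edgeR adjusted p = 0.256) or 2 (0.0974) or KO replicate 2 (0.15) or 3 (0.126), and in DESeq2 (adjusted p = 0.0868).

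The change from 0 h differed between genotypes for none of the 10 members at 3, 6, 9 or 12 h in edgeR, where 0%, 0%, 0.105% and 0.726% of all genes were called. The unadjusted edgeR p was under 0.05 for 0, 2, 0 and 3 members at these times, and DESeq2 called 0, 0, 0 and 1. The shares of all genes by these 2 measures are not given, so these counts have no baseline here. The joint edgeR F test over the 4 times called none of the members either, with 0.888% of all genes called and an adjusted p of 0.101 for the summed Hspa1 pair.

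Other genes of the heat shock network did not follow the Hspa1 pair in size. Of 61 listed genes outside the 10, 56 were tested. At 12 h against 0 h, 3 rose and 16 fell in KO cells, and 7 rose and 11 fell in WT cells, with median log2 changes of -0.13 and -0.09. Over all tested genes 8.13% rose and 6.58% fell in KO cells, and 9.64% rose and 8.47% fell in WT cells. The edgeR calls held with any library left out for 11 of the 19 in KO cells and 8 of the 18 in WT cells, and leaving out the WT 0 h replicates 1 or 3 or the WT 12 h replicates 1 or 2 brought the WT count to 10 or 11. Hsf1, the heat shock transcription factor, was at 16.4 ± 2.11 CPM at 12 h and 17.1 ± 2.46 CPM at 0 h in KO cells, and at 15.6 ± 2.21 CPM at 12 h and 19.7 ± 3.12 CPM at 0 h in WT cells (SD, n = 3 each), and was not called (edgeR adjusted p = 0.914 and 0.204 in KO and WT cells). The small heat shock proteins Hspb1, Hspb6, Hspb8 and Cryab were below the filter, with 17, 190, 9 and 1 counts over all 30 libraries.

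The subunits of TRiC, the cytosolic chaperonin that folds actin and tubulin, fell. In KO cells 7 of 8 were called as falling at 12 h, and in WT cells 6 of 8, with median log2 changes of -0.35 and -0.30, beside -0.00508 and 0.00328 over all genes, of which 6.58% and 8.47% fell. The largest fall was that of Cct6a, which was at 112 ± 3.84 CPM at 12 h and 186 ± 9.83 CPM at 0 h in KO cells, and at 123 ± 8.56 CPM at 12 h and 170.1 ± 6.08 CPM at 0 h in WT cells (SD, n = 3 each). Its log2 changes were -0.73 ± 0.07 in KO cells (edgeR adjusted p = 1.18e-08) and -0.46 ± 0.07 in WT cells (edgeR adjusted p = 1.51e-05).

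Of 10 Hsp90 cochaperones, 3 fell in KO cells at 12 h, among them Ahsa1, the activator of the Hsp90 ATPase (-0.51 ± 0.10, edgeR adjusted p = 0.000541), and 2 fell in WT cells, among them Cdc37, which brings kinases to Hsp90 (-0.30 ± 0.07, edgeR adjusted p = 0.00256). None of the 10 rose, and over all genes 6.58% fell in KO cells and 8.47% in WT cells. Of 7 tested J proteins, 1 rose in KO cells (8.13% of all genes rose) and 3 rose in WT cells (9.64%), where Dnajb4 changed most (0.77 ± 0.20, edgeR adjusted p = 0.00736), a call lost without the WT 0 h replicate 2 (edgeR adjusted p = 0.0625). Of 8 Hsp70 cofactors, 2 fell in KO cells, among them Bag1 (-0.39 ± 0.08, edgeR adjusted p = 0.00166), and none was called in WT cells.

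Chaperones of the endoplasmic reticulum had a separate course. Between 12 h and 9 h, 4 of 8 fell in KO cells (1.84% of all genes fell) and 4 of 8 fell in WT cells (5.37%), with Pdia4, a protein disulfide isomerase, at -0.39 ± 0.05 in KO cells (edgeR adjusted p = 7.78e-06) and -0.44 ± 0.05 in WT cells (edgeR adjusted p = 5.4e-07). In the same interval the Hspa1 pair rose in both genotypes. No gene of the other lists was called in the test of a genotype difference in the change from 0 h at any time. Of all genes, 0%, 0%, 0.105% and 0.726% were called at 3, 6, 9 and 12 h, so the lists are near that share.

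**Figure D5:**
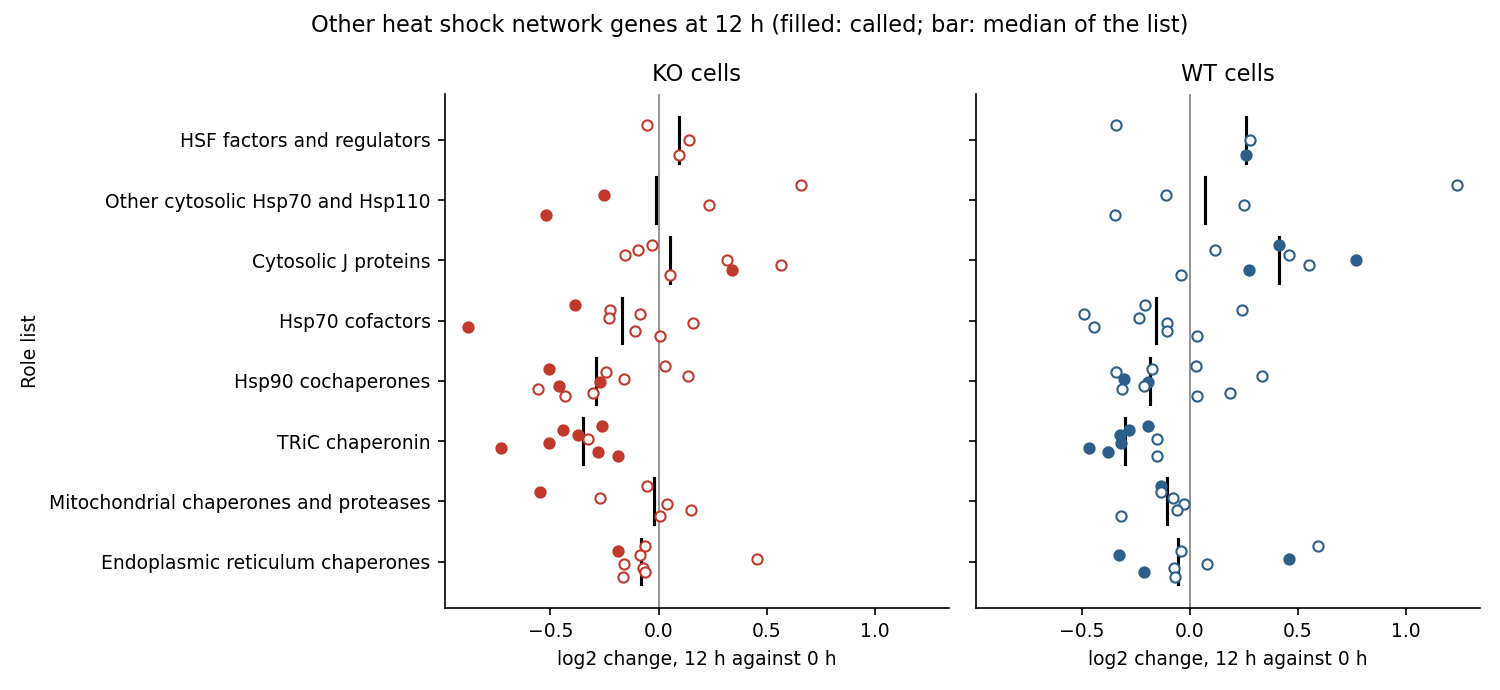
Log2 change at 12 h against 0 h (x axis) of tested network genes outside the 10 members, in rows for each role list with at least 3 tested genes (y axis), in KO cells (left, red) and WT cells (right, blue), with filled points for changes called at an adjusted p under 0.05 and a bar at the median of each row. TRiC subunits lie left of 0 in both panels.

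By Pearson correlation of mean log2 CPM over the 10 groups, the genes most like the summed Hspa1 pair among 6618 compared were Ccrl2 (0.982), Rps6ka2 (0.981), Kdm6b (0.979), Akap13 (0.979) and Cd200 (0.977). Ccrl2, a chemokine receptor-like protein, was at 106 CPM at 12 h and 13.1 CPM at 0 h in KO cells, and at 101 CPM at 12 h and 14.2 CPM at 0 h in WT cells. Most like Hspd1 were Cbfb (0.968), Actr2 (0.967), Trap1 (0.957), Psma6 (0.952) and Tnpo1 (0.941). Of these Trap1, the mitochondrial Hsp90, is in the network lists, and it fell at 12 h in KO cells (-0.55 ± 0.14, edgeR adjusted p = 0.00878), a call lost without the KO 0 h replicate 2 (edgeR adjusted p = 0.0661). Among the members themselves, Dnajb1 correlated with Hspa1a at 0.921. The 10 points share libraries and a time course, so these values are descriptions.

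In the authors' deposited tables, which list only genes past an adjusted p of 0.05 and an absolute log2 fold change of 0.50, Hspa1a and Hspa1b are listed at 12 h with log2 fold changes of 3.52 and 3.32 in KO cells and 3.79 and 3.75 in WT cells. At 9 h both are listed in both genotypes. At 6 h both are listed in WT cells and neither in KO cells. At 3 h only Hspa1a is listed, in WT cells, so the early KO rises called here are not among the authors' listed genes. Hspd1 is listed in the authors' deposited tables at 9 h and 12 h in KO cells (-0.55 and -0.59) and at 9 h in WT cells (-0.51), and Hsph1 at 12 h in KO cells (-0.54). None of the 10 is listed in the authors' 5 deposited tables of WT against KO, where the 6 h differences of -0.85 for Hspa1a and -0.66 for Hspa1b given above come from the edgeR fit here and run KO over WT.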

How the data were processed

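RNA from 30 libraries of TruSeq Stranded mRNA preparations was sequenced by the authors, per the labels. The deposited table holds raw counts per Ensembl gene, judged from whole numbers with different totals. The tools Trimmomatic 0.35, HISAT2, StringTie and DESeq2 and the build GRCm38 are named in the submitters' processing notes, with settings not given in the sources used here. Gene counts taken from StringTie can be rounded estimates. The authors' 13 comparison tables hold log2 fold changes, per the file headers. Their p-values and adjusted p-values are also the authors', per the file headers. The per-library normalized signal deposited in these tables was not used for tests. No column of other samples was found (0).

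Counts were fitted here with edgeR 4.0.16 in R 4.3.3 (filterByExpr, minimum count 10; TMM scaling; robust quasi-likelihood; 1 coefficient per group; 30 libraries; residual degrees of freedom 20), which kept 12393 genes and removed 42139. The biological coefficient of variation was 13.7%. P-values are two-sided, with Benjamini-Hochberg adjustment over the genes kept and a threshold of 0.05. Where a gene varied less than counting noise, edgeR takes the larger Poisson p, so a standard error can look smaller than its p. CPM are counts over TMM-scaled totals, and RPKM divide them by exon length. Intervals are at 95%. The fit was tested on simulated data. DESeq2 1.42.0, other scalings and filters, and each library left out were alternatives.

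Gene names came from GENCODE M21 (37 IDs unmatched). The 10 genes, the role lists and the marker lists were chosen with earlier results of these data known. All members are named. Of each role list at most the 3 largest called changes could be named, and the 5 genes nearest in pattern to the Hspa1 pair and to Hspd1. In 19 comparisons, same-numbered libraries correlated at -0.062 to 0.0956 in their deviations, so replicate numbers were not used as pairs. The genes of 1 role list are not reported here.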

Additional observations from a re-analysis of the deposited data

How the results depend on the processing

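Of 65 called member results (a gene in a comparison), 39 kept their call under every alternative run and 26 lost it under at least 1. Of 185 uncalled results, 13 gained a call under at least 1. No called value changed direction, while 56 uncalled ones changed sign. The summed Hspa1 pair kept every call at 3, 6, 9 and 12 h against 0 h in both genotypes, and at 6 h between genotypes, under all alternatives run, which for the pair were chosen after seeing the data, as were those of the network genes. Calls lost numbered 16 without a count filter, 15 with only the libraries of the comparison and 7 in DESeq2. They numbered 1 with RLE scaling and 0 when scaled without small RNA genes. More genes were tested without a count filter, and fewer samples entered with only the libraries of the comparison. The causes of the losses were not tested. The median of all genes moved by at most 0.0179 with RLE scaling or when scaled without small RNA genes. That shift was not computed for the fit without a count filter. The replicate block changed 0 member calls, every member count staying as reported, for example 7 at 12 h in each genotype. Same-number correlations were low, and in 0 of 19 comparisons was every one over 0.1. In 6 every library correlated best with its own number, so whether same-numbered libraries shared a culture cannot be told from this.

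Counts of members called moved by over 1.5 times in these cases. Without a count filter they were 3 for WT 9 h and 4 for WT 12 h against 0 h, and for KO against WT 0 at 0 h, 1 at 3 h, 1 at 9 h and 0 at 12 h. With only the libraries of the comparison they were 1 for KO 3 h against 0 h, 0 for WT 6 h against 3 h, 0 for KO 9 h against 6 h, and for KO against WT 1 at 0 h, 1 at 3 h, 1 at 6 h and 0 at 12 h. In DESeq2 they were 4 for WT 12 h against 0 h, 0 for KO 9 h against 6 h, 0 for KO against WT at 12 h and 1 for the difference between genotypes in the 12 h change. Without a count filter, 12 network genes were called in KO and 8 in WT cells at 12 h. For these counts and the ranges below, the share of all genes called under the same setting is not given. From the values printed here, a move in the members can therefore not be told from a move over all genes.

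With 1 library left out at a time, members called ranged for KO cells against 0 h over 2 to 3 at 3 h, 4 to 5 at 6 h, 4 to 6 at 9 h and 6 to 7 at 12 h. For WT cells the ranges were 2 to 3, 4 to 5, 5 to 6 and 4 to 7. For 6 h against 3 h, 9 h against 6 h and 12 h against 9 h they were 0 to 1, 0 to 2 and 2 to 2 in KO cells and 2 to 3, 0 to 0 and 3 to 4 in WT cells. For KO against WT they were 0 to 3 at 0 h, 0 to 2 at 3 h, 2 to 3 at 6 h, 0 to 0 at 9 h, 0 to 1 at 12 h and 7 to 9 over the 5 times. For the genotype difference in the change they were 0 to 0 at 3, 6 and 9 h, 0 to 1 at 12 h and 0 to 0 in the F test. Network genes called ranged over 14 to 20 in KO and 10 to 18 in WT cells at 12 h, and 16 to 21 over the 5 times between genotypes. TRiC genes ranged over 5 to 8, 4 to 7 and 2 to 4.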
